A study of Mus musculus with 8 samples.

Results

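Open chromatin was examined at 4 neutrophil genes, Cebpa, Mpo, Elane and Prtn3, in 2 sorted populations of mouse blood progenitors. The members were all accessible peaks that overlap 3 windows of the mm9 genome. Peaks were taken by position and not by signal, though the windows were chosen with earlier results of these data known. A window of 70 kb on chromosome 7 (35890000 to 35960000) holds Cebpa and held 14 peaks. A window of 25 kb on chromosome 11 (87600000 to 87625000) holds Mpo and held 6 peaks. A window of 30 kb on chromosome 10 (79335000 to 79365000) holds Prtn3 and Elane and held 11 peaks. Together these are 31 of the 134473 peaks in the table.

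Accessibility was read by ATAC-seq, in which a transposase cuts and tags open DNA. The tested cells were Vwf+Gata1+ MPP2 and the cells they are set against were Vwf-Gata1+ MPP2, with 4 libraries in each group and 500 cells in each library. Both came from bone marrow of adult C57BL/6 mice, 8 to 12 weeks old, and both were sorted as LSK, Flt3-, CD150+, CD48+ and Gata1+, so that the sort separated them by Vwf alone. The labels name no treatment and no reporter allele. The labels do not state how Vwf and Gata1 were read in the sort, and they do not say that each replicate is another animal. The p-values below therefore measure only library-to-library spread, part of which may be technical. The comparison asks whether the 2 sorts differ in the accessibility of regulatory DNA, here at genes of the granulocyte branch.

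Cebpa encodes C/EBPα, a transcription factor without which granulocyte precursors do not form, and its gene has no intron. In mouse blood progenitors its transcription depends on an enhancer that lies 37 kb after the gene start. Mpo encodes myeloperoxidase, and Elane and Prtn3 encode neutrophil elastase and proteinase 3, serine proteases stored with myeloperoxidase in the primary granules that form at the promyelocyte stage. MPP2 cells stand upstream of that stage and lean toward megakaryocytes and red cells, lineages in which these granule genes are not used.

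The promoters of the 4 genes are shown as the sequence before each gene start. Peaks over the gene starts are given below for Cebpa and Mpo only. All 4 were found in RefSeq (build GRCm38.p6, plus strand, 250 bases before the gene start). Their positions in that build are chr7:35119043-35119292 for Cebpa, chr11:87793534-87793783 for Mpo, chr10:79886062-79886311 for Elane and chr10:79879417-79879666 for Prtn3. The peaks are in mm9, another build, so these bases were not placed inside the peaks. Capitals mark matches to AGGAAG, a core of ETS factors such as PU.1, or to TATAAA, a form of the TATA box, on either strand.
Cebpa: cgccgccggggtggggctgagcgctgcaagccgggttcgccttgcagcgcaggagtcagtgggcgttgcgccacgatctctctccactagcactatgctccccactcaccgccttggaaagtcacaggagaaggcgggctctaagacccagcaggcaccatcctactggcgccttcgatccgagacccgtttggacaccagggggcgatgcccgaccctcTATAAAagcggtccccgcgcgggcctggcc
Mpo: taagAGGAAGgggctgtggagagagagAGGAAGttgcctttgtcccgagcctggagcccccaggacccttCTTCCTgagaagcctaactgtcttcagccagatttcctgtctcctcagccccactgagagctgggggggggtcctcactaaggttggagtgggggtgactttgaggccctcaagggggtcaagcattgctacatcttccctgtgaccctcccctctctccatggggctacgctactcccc
Elane: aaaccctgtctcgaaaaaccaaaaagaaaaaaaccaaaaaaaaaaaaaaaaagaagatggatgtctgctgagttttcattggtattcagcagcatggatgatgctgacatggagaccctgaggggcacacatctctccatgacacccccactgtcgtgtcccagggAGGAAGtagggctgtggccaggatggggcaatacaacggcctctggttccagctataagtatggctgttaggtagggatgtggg
Prtn3: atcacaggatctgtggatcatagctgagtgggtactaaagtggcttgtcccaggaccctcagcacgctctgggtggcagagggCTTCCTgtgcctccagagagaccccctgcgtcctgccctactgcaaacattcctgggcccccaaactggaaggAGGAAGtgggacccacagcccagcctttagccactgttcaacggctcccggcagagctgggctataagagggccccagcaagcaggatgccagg

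The granule gene promoters each held AGGAAG, with 3 matches at Mpo, 1 at Elane and 2 at Prtn3, and Cebpa held 0. AGGAAG was present in 29.5% of 32851 RefSeq promoters of the same length. TATAAA was found at Cebpa, from 30 bases before its start, and in 12.4% of all promoters. The C/EBP motif TTGCNNAA was in none of the 4 promoters and in 9.56% of all promoters. The GATA motif AGATAA, also in none of the 4, was in 9.99% of all promoters. The RUNX motif TGTGGT and the MYB motif TAACGG had 0 matches in the 4 promoters, with shares of 14.0% and 2.18% over all promoters. None of these motifs overlapped another in the 4 promoters. Each motif was searched only as the word given, so variant forms of these sites were not counted. A count of 0 therefore does not mean that a promoter lacks such a site. The Cebpa promoter had the highest GC content of the 4, 66.4%, against a median of 52.4% over all promoters.

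Total counts in peaks ran from 4628997 to 7753538 in Vwf+Gata1+ libraries and from 5447813 to 7670844 in Vwf-Gata1+ libraries. The 31 member peaks together received 1156 to 2033 counts per Vwf+Gata1+ library and 1483 to 2197 counts per Vwf-Gata1+ library. Signal is given as CPM, counts scaled to library size, after TMM scaling, and levels of different peaks are compared as CPM per kb of peak. Where a peak is called the strongest of a window, the rank is by CPM without division by width. Of the 31 members, 29 had enough counts to be tested, and the remaining 2, weak peaks 18.45 and 25.28 kb after the Cebpa start, had 2 to 8 counts per Vwf+Gata1+ library and 4 to 12 per Vwf-Gata1+ library. As a check of the sort, peaks in a 160 kb window around Vwf were read. Of 22 tested, 5 were higher in Vwf+Gata1+ cells at an unadjusted p under 0.05 (edgeR), against 3.52% of all tested peaks. None passed adjustment (lowest edgeR adjusted p = 0.113). The fold change was above 0 at 13 of the 22 and below 0 at 9. Around Gata1, for which both populations were positive, 2 peaks were tested, with log2 fold changes of 0.07 ± 0.09 and -0.06 ± 0.11 (SE).

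The strongest member was the peak over the Cebpa gene start (chr7:35903075-35905307). Its signal was 64.0, 70.2, 60.7 and 64.4 CPM in replicates 1 to 4 of Vwf+Gata1+ cells and 62.5, 62.6, 76.3 and 68.3 CPM in replicates 1 to 4 of Vwf-Gata1+ cells. The 2 groups overlapped, and the highest value belonged to replicate 3 of Vwf-Gata1+ cells. The means were 64.8 ± 3.93 CPM in Vwf+Gata1+ libraries and 67.4 ± 6.5 CPM in Vwf-Gata1+ libraries (n = 4 each, SD). The log2 fold change (log2FC), Vwf+Gata1+ minus Vwf-Gata1+, was -0.05 ± 0.09 (SE, adjusted p = 0.959 by edgeR), with a 95% interval of -0.23 to 0.12. At 2233 bp the peak was wider than 99.8% of all peaks and held 45.3% of the counts of its window. Per kb it reached 29.0 CPM in Vwf+Gata1+ libraries and 30.2 CPM in Vwf-Gata1+ libraries, above 94.2% of all peaks. Its coefficient of variation over the 8 libraries was 7.8%, where counting alone would give 4.99%.

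The peak at the position of the Cebpa enhancer, centred 37.45 kb after the gene start (chr7:35941299-35942192), had the next highest CPM of the window. It had 21.3, 16.9, 22.5 and 14.2 CPM in replicates 1 to 4 of Vwf+Gata1+ cells and 18.7, 18.5, 22.0 and 19.3 CPM in replicates 1 to 4 of Vwf-Gata1+ cells. All 4 Vwf-Gata1+ libraries lay within the range of the Vwf+Gata1+ libraries. The means were 18.7 ± 3.84 CPM and 19.6 ± 1.65 CPM in the same order of groups (n = 4 each, SD), a log2FC of -0.07 ± 0.13 (SE, adjusted p = 0.966 by edgeR) with a 95% interval of -0.33 to 0.20. Per kb it reached 21.0 CPM in Vwf+Gata1+ libraries and 21.9 CPM in Vwf-Gata1+ libraries, above 88.7% of all peaks. Per kb the narrow peak 5.67 kb after the start (chr7:35909818-35910118) stood higher, at 22.9 CPM in Vwf+Gata1+ libraries and 26.6 CPM in Vwf-Gata1+ libraries.

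**Figure D1:**
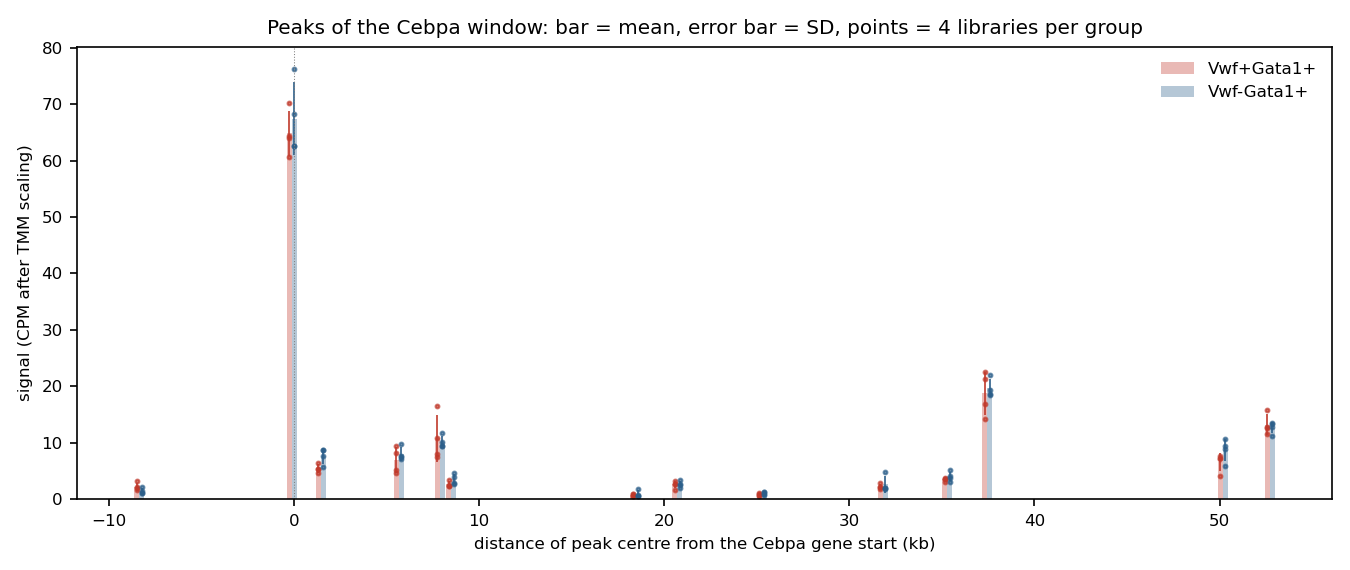
Signal of the 14 peaks of the Cebpa window (vertical axis, CPM after TMM scaling) by distance of the peak centre from the Cebpa gene start (horizontal axis, kb), with bars for group means, error bars for SD and points for the 4 libraries of each group. The peak over the gene start stands highest, with means of 64.8 CPM in Vwf+Gata1+ libraries and 67.4 CPM in Vwf-Gata1+ libraries, and the peak at 37.45 kb comes next.

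The share of signal in the enhancer peak relative to the gene start peak was spread more widely over the Vwf+Gata1+ libraries. Of the counts in these 2 peaks, the enhancer peak held 25.0%, 19.4%, 27.0% and 18.1% in replicates 1 to 4 of Vwf+Gata1+ cells and 23.0%, 22.8%, 22.4% and 22.0% in replicates 1 to 4 of Vwf-Gata1+ cells. The means were 22.4% ± 4.3 for the Vwf+Gata1+ libraries and 22.6% ± 0.446 for the Vwf-Gata1+ libraries (n = 4 each, SD). In Vwf+Gata1+ cells the exact binomial 95% interval of replicate 4 (15% to 21.6%) lay below those of replicates 1 and 3. Those were 21.7% to 28.5% and 22.5% to 31.9% in that order, and the interval of replicate 2 (15.9% to 23.3%) overlapped all of them. These intervals treat reads as independent molecules, which is not known, so they may be too narrow even for counting error. They include no other variation between libraries. The Vwf-Gata1+ shares, 22.0% to 23.0%, lay closer together than the width of any single interval in that group, such as 18.7% to 25.5% in replicate 4. The difference in spread between the groups was not tested.

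**Figure D2:**
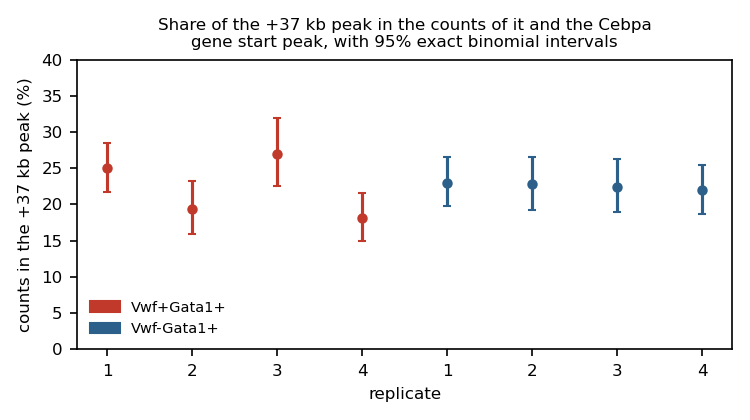
Share of the +37 kb peak in the summed counts of it and the Cebpa gene start peak (vertical axis, percent) for each replicate (horizontal axis), with exact binomial 95% intervals as lines. The Vwf+Gata1+ libraries run from 18.1% to 27.0%, and the Vwf-Gata1+ libraries from 22.0% to 23.0%.

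The lowest p of any member was at a small peak inside the Cebpa gene, centred 1.45 kb after its start (chr7:35905495-35906011). Its signal was 5.27, 4.69, 6.42 and 5.32 CPM in replicates 1 to 4 of Vwf+Gata1+ cells and 8.63, 7.69, 5.66 and 8.61 CPM in replicates 1 to 4 of Vwf-Gata1+ cells. Only replicate 3 of Vwf-Gata1+ cells, at 5.66 CPM, fell within the range of the Vwf+Gata1+ libraries. The log2FC was -0.52 ± 0.19 (SE, with unadjusted p = 0.0102 and adjusted p = 0.556 by edgeR). With the replicate number as a block the adjusted p was 0.20 (edgeR), the lowest that any of the planned fits gave for a member.

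Of the other members of the Cebpa window, the peak 50.17 kb after the start (chr7:35954144-35954794) averaged 6.57 ± 1.64 CPM in Vwf+Gata1+ libraries and 8.67 ± 2.01 CPM in Vwf-Gata1+ libraries (n = 4 each, SD; log2FC -0.39 ± 0.19 as SE, unadjusted p = 0.0493 and adjusted p = 0.742 by edgeR). The peak at 52.72 kb (chr7:35956709-35957330) was stronger and averaged 13.2 ± 1.82 CPM in Vwf+Gata1+ libraries and 12.7 ± 1.03 CPM in Vwf-Gata1+ libraries. The peak of the window with the largest positive value was centred at -8.34 kb from the gene start (chr7:35895802-35896122). It had 10 to 16 counts per Vwf+Gata1+ library and 7 to 15 per Vwf-Gata1+ library, a log2FC of 0.58 ± 0.35 (SE, adjusted p = 0.815 by edgeR). Its 95% interval, -0.14 to 1.29, reached farther from 0 than that of any other tested member. The peak at 7.88 kb (chr7:35911862-35912502) had 16.5 CPM in replicate 3 of Vwf+Gata1+ cells and 7.51 to 10.9 CPM in the other 3 libraries of that group, against 9.38 to 11.7 CPM in Vwf-Gata1+ libraries. Its coefficient of variation over the 8 libraries was 26.8%, where counting alone would give 12.6%.

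At Mpo, the peak over the gene start (chr11:87606893-87607314) was weak. Its counts were 32, 15, 12 and 27 in replicates 1 to 4 of Vwf+Gata1+ cells and 33, 21, 11 and 18 in replicates 1 to 4 of Vwf-Gata1+ cells. In signal this was 4.21, 2.81, 2.75 and 3.88 CPM in Vwf+Gata1+ libraries and 4.31, 3.23, 2.15 and 2.63 CPM in Vwf-Gata1+ libraries. The groups overlapped, and replicate 1 was the highest library of each group. The means were 3.42 ± 0.744 CPM in Vwf+Gata1+ libraries and 3.08 ± 0.935 CPM in Vwf-Gata1+ libraries (n = 4 each, SD), a log2FC of 0.16 ± 0.26 (SE, adjusted p = 0.959 by edgeR) with a 95% interval of -0.38 to 0.69. Per kb it had 8.09 CPM in Vwf+Gata1+ libraries and 7.29 CPM in Vwf-Gata1+ libraries, above 56.4% of all peaks, where the peak over the Cebpa start was above 94.2%.

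Of the other 5 peaks of the Mpo window, 4 had more signal per kb than the gene start peak. The peak centred at -3.33 kb (chr11:87603502-87604034) was the strongest, with 8.17, 11.3, 8.48 and 8.77 CPM in replicates 1 to 4 of Vwf+Gata1+ cells and 10.1, 12.5, 10.9 and 10.5 CPM in replicates 1 to 4 of Vwf-Gata1+ cells. Replicate 2 of Vwf+Gata1+ cells was above 3 of the Vwf-Gata1+ libraries and the groups overlapped (log2FC -0.27 ± 0.16 as SE, adjusted p = 0.811 by edgeR). The peak 15 kb after the start (chr11:87621764-87622439) lies past the gene, which ends near 87617900, on the side of Lpo, the lactoperoxidase gene that follows Mpo in RefSeq. It had 10.5, 8.44, 9.63 and 8.63 CPM in replicates 1 to 4 of Vwf+Gata1+ cells and 6.14, 8.00, 8.78 and 7.88 CPM in replicates 1 to 4 of Vwf-Gata1+ cells (log2FC 0.29 ± 0.17 as SE, adjusted p = 0.804 by edgeR). The peak at the window's edge (chr11:87624948-87625412) averaged 7.01 ± 1.39 CPM in Vwf+Gata1+ libraries and 7.32 ± 1.16 CPM in Vwf-Gata1+ libraries (n = 4 each, SD). Within the gene, peaks 1.67 and 9.19 kb after the start averaged 4.51 and 1.99 CPM in Vwf+Gata1+ libraries, against 4.18 and 2.08 CPM in Vwf-Gata1+ libraries.

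The Prtn3-Elane window held no single dominant peak. RefSeq gives the order Plppr3, Prtn3, Elane, Cfd along the chromosome. Which of the 11 peaks cover the Prtn3 and Elane starts was not determined, since no mm9 gene positions were at hand for these genes. The strongest peak (chr10:79344417-79345237) had 18.6, 17.1, 20.6 and 15.5 CPM in replicates 1 to 4 of Vwf+Gata1+ cells and 23.1, 17.8, 17.6 and 19.4 CPM in replicates 1 to 4 of Vwf-Gata1+ cells. It held 19.8% of the counts of its window, and its groups overlapped (log2FC -0.14 ± 0.13 as SE, adjusted p = 0.90 by edgeR). The next, chr10:79340468-79341067, had the highest level per kb of the window, 26.0 CPM in Vwf+Gata1+ libraries and 28.2 CPM in Vwf-Gata1+ libraries, above 92.8% of all peaks. Replicate 1 of Vwf-Gata1+ cells was the highest library at both, with 23.1 and 21.2 CPM. The longest stretches of the window between listed peaks were 7.07 kb after 79356559 and 4.05 kb after 79347982.

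The lowest p of the Prtn3-Elane window was at chr10:79346457-79346903. Its signal was 8.69, 8.26, 7.33 and 11.1 CPM in replicates 1 to 4 of Vwf+Gata1+ cells and 11.5, 12.5, 12.3 and 10.5 CPM in replicates 1 to 4 of Vwf-Gata1+ cells. Replicate 4 of Vwf+Gata1+ cells lay above replicate 4 of Vwf-Gata1+ cells, and the groups otherwise did not cross. The log2FC was -0.38 ± 0.16 (SE, with unadjusted p = 0.0229 and adjusted p = 0.668 by edgeR). The peak with the lowest p on the other side, chr10:79337021-79337628, averaged 11.7 ± 1.31 CPM in Vwf+Gata1+ libraries and 11 ± 2.35 CPM in Vwf-Gata1+ libraries (n = 4 each, SD; log2FC 0.12 ± 0.16 as SE, adjusted p = 0.942 by edgeR).

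**Figure D3:**
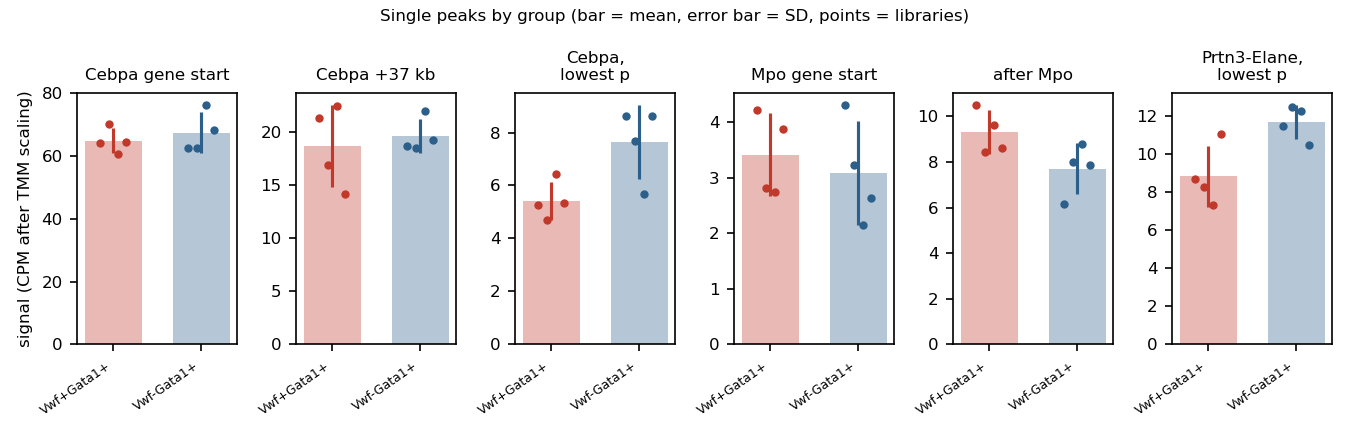
Signal (vertical axes, CPM after TMM scaling, each from 0) of 6 single peaks by group, with bars for means, error bars for SD and points for the 4 libraries. The groups overlap in each panel. At the Cebpa peak 1.45 kb after the start, 1 Vwf-Gata1+ library at 5.66 CPM lies within the Vwf+Gata1+ range. The same holds for 1 Vwf-Gata1+ library at 10.5 CPM at the Prtn3-Elane peak. It also holds for 1 at 8.78 CPM at the peak after Mpo, where the Vwf+Gata1+ mean is the higher.

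No member was called in either direction by the quasi-likelihood test of edgeR at an adjusted p of 0.05. Over all 97040 tested peaks 0.0134% were called as higher in Vwf+Gata1+ cells and 0.00103% as lower, so that 0 calls among 29 is what the background share gives. At an unadjusted p under 0.05 there were 0 higher and 3 lower members, where the background share was 3.52% higher and 3.20% lower. DESeq2 also called 0 members, against 0.0113% higher and 0.00% lower of all tested peaks. At an unadjusted p under 0.05 DESeq2 gave 0 higher and 2 lower members, with a background of 1.97% higher and 1.51% lower. With the replicate number as a block edgeR called 0 members, against 0.386% higher and 0.140% lower of all tested peaks. For 29 members, 0 calls is also what these shares give. The groups did not overlap at 2 members, both lower in Vwf+Gata1+ cells and both in the Prtn3-Elane window, against 1.81% higher and 2.07% lower of all tested peaks. Those are chr10:79339948-79340249, with 6.26 ± 1.18 CPM in Vwf+Gata1+ libraries and 7.83 ± 0.487 CPM in Vwf-Gata1+ libraries, and chr10:79355386-79356012, with 9.21 ± 0.726 CPM and 10.9 ± 0.128 CPM in the same order of groups (n = 4 each, SD). Their edgeR adjusted p-values were 0.809 and 0.818, and with scaling by total count the groups did not overlap at 1 member.

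**Figure D4:**
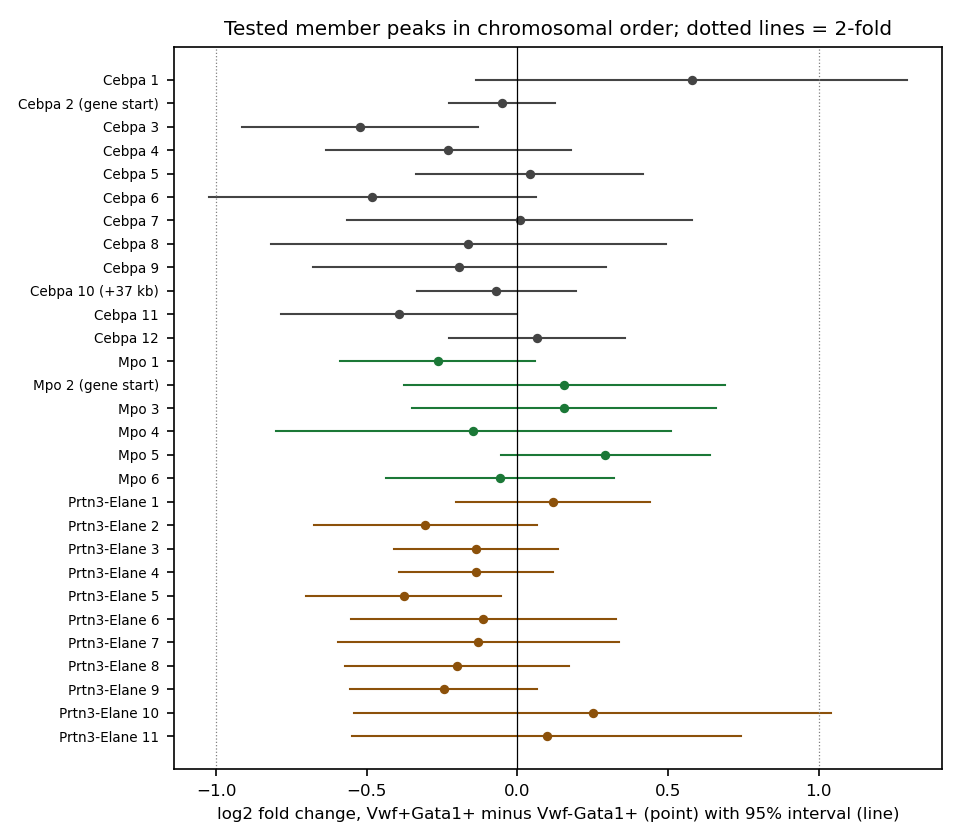
Log2 fold change (horizontal axis, Vwf+Gata1+ minus Vwf-Gata1+) of the 29 tested members, listed in chromosomal order by window (vertical axis), with 95% intervals as lines and dotted lines at 2-fold. Values run from -0.52 to 0.58, and 26 of the 29 intervals lie inside the dotted lines, as do those of 85.6% of all tested peaks.

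For 26 of the 29 tested members the 95% interval stayed inside a 2-fold change up or down, 10 of 12 at Cebpa, 6 of 6 at Mpo and 10 of 11 at Prtn3-Elane. The same held for 85.6% of all tested peaks, so the members' share is near the background. The number of peaks was not corrected for in these intervals. At both the Cebpa gene start and its enhancer they were narrower than at the Mpo start, where counts were fewer. Differences below 2-fold were often not detectable at this depth. In simulated counts with 200 of 97040 peaks changed, the test recovered 17.5% of 1.5-fold changes, 55.0% of 2-fold changes and 99.0% of 4-fold changes.

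Signs leaned to one side, and this lean was not tested. The fold change was below 0 at 19 of the 29 tested members, against 49.3% of all tested peaks, and the median log2FC was -0.13 over the members and 0.00 over all tested peaks. By window, 8 of 12 tested members were below 0 at Cebpa (median -0.12), 3 of 6 at Mpo (median 0.05) and 8 of 11 at Prtn3-Elane (median -0.14). Without replicate 3 of Vwf-Gata1+ cells the Cebpa median was -0.0008, and without single libraries the Mpo median ran from -0.07 to 0.13. Neighbouring peaks share chromosome and libraries and are not replicates of each other, so these counts are a description.

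The signal of each window was also summed over its peaks in every library. Cebpa had 138, 138, 146 and 142 CPM in replicates 1 to 4 of Vwf+Gata1+ cells and 146, 143, 157 and 155 CPM in replicates 1 to 4 of Vwf-Gata1+ cells, with overlap between the groups. Mpo had 37.4, 39, 32.1 and 33.1 CPM in Vwf+Gata1+ libraries and 33.3, 34.9, 35.5 and 37.7 CPM in Vwf-Gata1+ libraries, and the means, 35.4 ± 3.35 and 35.3 ± 1.79 CPM in the same order (n = 4 each, SD), were closer than the spread in either group. Prtn3-Elane had 92.7, 86.7, 86.4 and 91.2 CPM in Vwf+Gata1+ libraries and 108, 98.7, 96.5 and 93.1 CPM in Vwf-Gata1+ libraries. There every Vwf+Gata1+ library was below every Vwf-Gata1+ library, with means of 89.2 ± 3.18 CPM and 99.1 ± 6.47 CPM in the same order (n = 4 each, SD), a ratio of 0.90. The separation depended on the scaling. With total counts in place of TMM the Prtn3-Elane sums overlapped, at 81.4 to 90.8 CPM in Vwf+Gata1+ libraries and 89.9 to 108 CPM in Vwf-Gata1+ libraries, and the Cebpa sums did not, at 130 to 138 CPM and 140 to 150 CPM in the same order. Tiling all peaks in 30 kb steps, a background chosen after this value was seen, gave the same separation in 2.42% of 37882 tiles on the lower side and 1.78% on the higher side. With 134473 peaks in the data, a tile held on average fewer peaks than the 11 of the Prtn3-Elane window. The shares are therefore not a like background for that window. In bulk libraries, fewer cells with an open site and less opening per cell cannot be told apart.

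**Figure D5:**
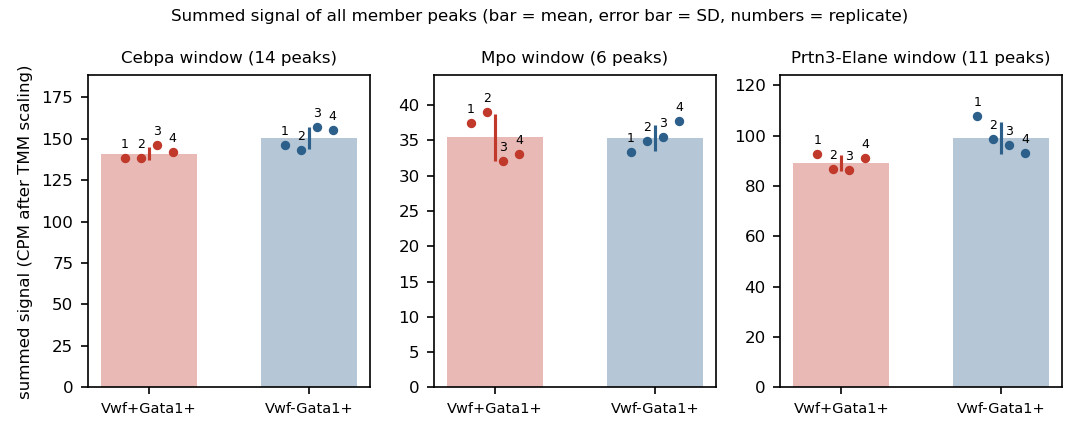
Summed signal of all member peaks of each window (vertical axes, CPM after TMM scaling, from 0) by group, with bars for means, error bars for SD and numbered points for replicates. The groups overlap at Cebpa and Mpo; at Prtn3-Elane the Vwf+Gata1+ libraries run from 86.4 to 92.7 CPM and the Vwf-Gata1+ libraries from 93.1 to 108 CPM.

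Windows of other factors of granulocyte and monocyte formation, placed at approximate mm9 positions, gave values of the same order. None of 7 tested peaks around Spi1 (PU.1), 11 around Irf8 and 5 around Gfi1 passed an adjusted p of 0.05, with 1 of these 23 at an unadjusted p under 0.05 (edgeR, Spi1, higher in Vwf+Gata1+ cells). Beside the medians of -0.12 at Cebpa and -0.14 at Prtn3-Elane, the median log2FC was 0.05 at Spi1, 0.03 at Irf8 and -0.09 at Gfi1. At Gata2, a regulator of the erythroid, megakaryocyte and mast cell side, 0 of 7 passed, 0 had an unadjusted p under 0.05 (edgeR) and the median was 0.04. The median level per kb over all 8 libraries was 17.8 CPM for the Prtn3-Elane peaks and 12.5 CPM for the Mpo peaks, against 36.3 CPM at Gata2, 16.4 CPM at Spi1, 9.07 CPM at Gfi1 and 7.30 CPM at Irf8, with Cebpa between Mpo and Gfi1. The peak over the Cebpa gene start was above 94.2% of all peaks per kb, against 99.1% for the highest peak of the Gfi1 window, 98.3% for that of Gata2, 97.5% for that of Spi1 and 90.7% for that of Irf8. The differences between windows were not tested.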

How the data were processed

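Chromatin accessibility was measured in 8 bulk libraries, 4 per group, made with the Omni-ATAC protocol and the Nextera kit per the labels. The authors deposited raw counts per peak in 1 table. The submitters' processing notes give mm9 as the build and name MACS2, Bowtie2, Picard, SAMtools, Trim Galore and FastQC with no version. Whether read ends were shifted, how duplicates were treated and how the peak set was built are points that the labels leave unstated. Total counts per library ran from 4628997 to 7753538.

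All peaks were fitted together, without covariates. Peaks with low counts were left out with filterByExpr (minimum count 10, minimum total 15), libraries were scaled by TMM, and the groups were compared by the quasi-likelihood test of edgeR (robust fit). P-values were adjusted over 97040 peaks by the Benjamini-Hochberg method. The SE was obtained by dividing the absolute log2 fold change by the square root of F. Members were taken from that fit. Distances are from gene starts known only approximately in mm9, 35904300 for Cebpa and 87607100 for Mpo. The members, windows and tests were chosen with earlier results of these data known. Named peaks are those at the Cebpa and Mpo gene starts, the peak 35 to 39 kb after the Cebpa start, and in each window the 3 strongest and the lowest p in each direction. Other peaks were named after their values were seen. Within groups, pairs of libraries differed by more than sampling noise (chi-square per degree of freedom 1.29 to 1.94), and all were kept. The test was checked on simulated counts. Software was Python 3.11.15 with matplotlib 3.10.9, and R 4.3.3 with DESeq2 1.42.0, edgeR 4.0.16 and limma 3.58.1.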

Additional observations from a re-analysis of the deposited data

How the results depend on the processing

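No alternative called a member: the count was 0 higher and 0 lower with edgeR under loess offsets, RLE or total count scaling, a CPM minimum or no filter, a looser threshold of 0.1 and the replicate block, with DESeq2, with limma-voom with quality weights, and without each library in turn. At an unadjusted p under 0.05 these fits gave 0 or 1 higher and 1 to 4 lower members, against 1.97% (DESeq2) to 5.66% (replicate block) higher and 1.51% (DESeq2) to 4.61% (replicate block) lower of all tested peaks. Of 210 values for the named peaks, 204 kept their direction and side of the threshold. The 6 that turned all came from leaving out 1 library: the log2 fold change ran from -0.144 to 0.0474 at chr11:87624948-87625412, from -0.0882 to 0.0117 at chr7:35903075-35905307, from -0.155 to 0.0498 at chr7:35941299-35942192 and from -0.0454 to 0.134 at chr7:35956709-35957330. With scaling by total count, the summed signal of the Prtn3-Elane window overlapped between the groups and that of the Cebpa window no longer did; RLE scaling left both as with TMM. The Cebpa median ran from -0.178 to -0.0008 without 1 library, and the cause was not tested.

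The background did depend on the processing. Against 13 higher and 1 lower peak of all tested, loess offsets gave 26 and 7, scaling by total count 21 and 6, a threshold of 0.1 gave 48 and 12, and limma-voom 0 and 0 (7236 with an unadjusted p under 0.05), while DESeq2 gave 0 lower (3372 with an unadjusted p under 0.05). Leaving out 1 library gave 3 to 66 higher and 0 to 10 lower, with 66 higher without replicate 1 of Vwf+Gata1+ cells, 51 without replicate 3 of Vwf-Gata1+ cells and 3 to 9 without any of the other 6 libraries, and the cause was not tested. With the replicate number as a block, 375 were higher and 136 lower. No label says that a number pairs samples: same-numbered libraries deviated together with correlations of 0.309, 0.168, 0.0762 and 0.0109 in replicates 1 to 4, and the closest library of the other group had the same number for 5 of 8, which is a hint and no part of the design. A sum of the peaks within 1 kb of a gene start was the same single peak at Cebpa and at Mpo. No library of 32 groups of 4 stood apart at a named peak or in a window sum. Unnamed members were not part of that check. Of these, chr7:35935978-35936270 had 4.88 CPM in replicate 3 of Vwf-Gata1+ cells and 1.85 to 1.96 CPM in the other libraries of that group. The median SE was 0.19 over the tested members and 0.23 over all tested peaks. Among members the SE was largest, 0.39, at the weakest tested peak (chr10:79356320-79356559, mean 1.53 CPM). It was 0.09 at the strongest, the peak over the Cebpa gene start.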
